A study of Mus musculus with 11 samples.

Results

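Cell 4 is 1 of 9 single Th1 cells in this series whose chromatin was cut with Bgl II before Hi-C, and it is compared here with cells 2, 3, 5, 6, 7, 9 and 10. Cell 1, the remaining Bgl II cell, was left out of that set of 7. Of 170560 contacts between chromosomes 1 to 19 in the 9 cells, 19395 came from cell 4 and 121195 from the 7 compared cells. Cell 4 was chosen by measured values of these same maps: a shallow fall of contacts with distance, weak sorting into compartments and uneven use of chromosome pairs. Those 3 features are therefore described, not tested, and the aim is to show which chromosomes and distances carry them.

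All the cells were CD4-positive T helper cells of the Th1 type, grown from the spleens of male C57BL/6 mice. Spleen cells were stimulated with anti-CD3, CD4-positive cells were purified on magnetic beads, and these were expanded with IL-2. No genotype, drug or time point differed between the cells in the labels, and no animal or culture of origin was named. A map of a cell population cut with the same enzyme (the ensemble, 51834382 contacts) served as reference. The labels give no stage of the cell cycle, and contact maps hold no gene expression by which the Th1 identity of a cell could be checked.

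Hi-C joins cut DNA ends that lie near each other in the nucleus, and each joined pair is counted as a contact. Along a chromosome (in cis), near ends meet more often than far ones, and the steepness of that fall reflects how the chromatin is folded. At the scale of megabases, active and inactive chromatin each meet their own kind, which gives 2 compartment classes. Each chromosome keeps to a territory of its own, and the contacts between chromosomes (in trans) show which territories border each other in that cell. A diploid cell holds a pair of copies of each autosome, which the maps do not tell apart, so a cis contact may also join the 2 copies.

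Depth did not set cell 4 apart. It held 19395 autosomal contacts, where the 7 cells held from 10834 (cell 10) to 26632 (cell 2), with a median of 16529. Cell 4 shared between 0 and 4 identical contacts with each of the 7 cells. Trans contacts made up 24.5% of its contacts (95% Wilson interval 23.9 to 25.2), against 10.5% (cell 6) to 25.4% (cell 2) in the 7 cells. Only cells 2 and 3 (24.6%) had as large a trans share. With 1 cell on one side no test between cell 4 and the others was possible, so no p-value is given. Values of the 7 cells are given by their range or as mean ± SD over cells, a spread that may be technical, and Wilson intervals cover counting error alone.

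Cell 4 had a smaller share of cis contacts from 20 kb to 1 Mb than each of the 7 cells, and a larger share over 10 Mb. Its median cis distance was 7.65 Mb, whereas the 7 cells ranged from 0.471 Mb (cell 10) over a median of 1.68 Mb to 2.13 Mb (cell 2). On log scales the contact density fell between 100 kb and 10 Mb with a slope of -0.807, against -1.02 ± 0.0565 (SD, n = 7). The 7 slopes lay between -1.14 (cell 10) and -0.970 (cell 2), so cell 4 was outside their range.

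**Figure D1:**
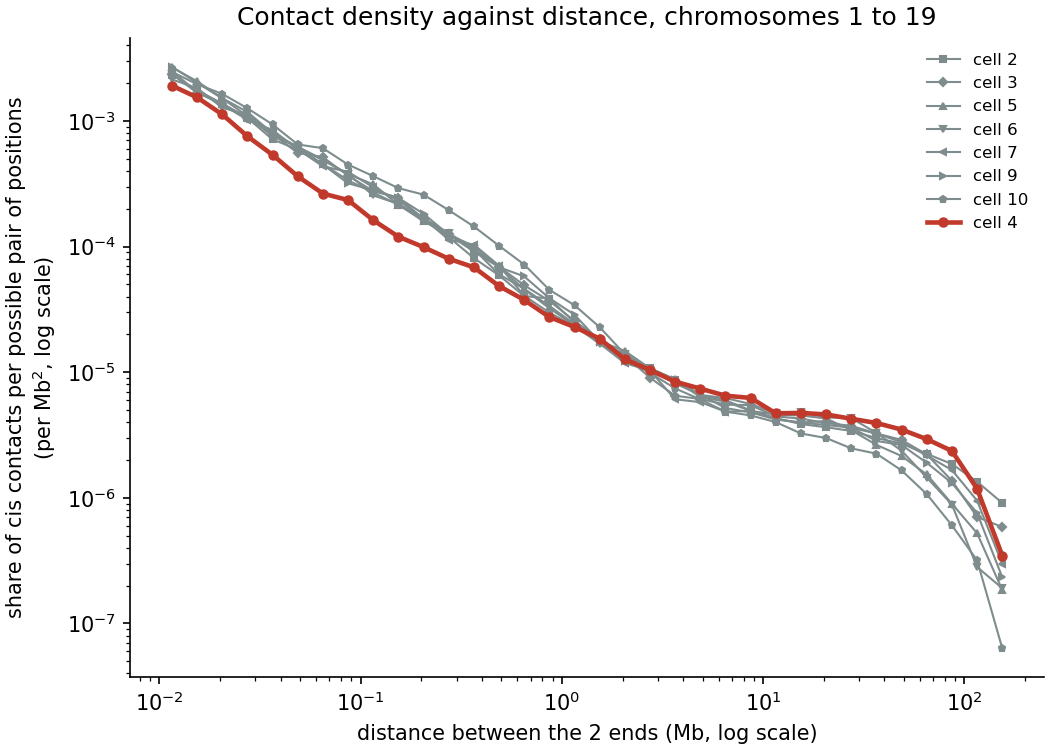
Share of cis contacts per possible pair of positions (per Mb squared, log scale) against the distance between the ends (Mb, log scale), for cell 4 (red) and the 7 compared cells (grey, 1 marker per cell). The curve of cell 4 runs below the others at distances from 10 kb to 1 Mb and above most of them from 5 Mb.

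Most of the loss lay between 20 kb and 1 Mb, the range in which contacts inside chromatin domains are mostly found. These distances held 2900 of 14635 cis contacts of cell 4, or 19.8% (19.2 to 20.5). In the 7 cells they held from 28.3% (cell 2) over a median of 30.5% to 40.3% (cell 10), so that cell 4 was 11.6 points below the mean of 31.4% ± 4.02 (SD, n = 7). The ensemble held 25.8% there. From 20 to 100 kb the share was 7.57% in cell 4 and 11.95% ± 0.893 (SD, n = 7) in the 7 cells, a ratio of 0.634. From 100 kb to 1 Mb it was 12.2% against 19.5% ± 3.19 (SD, n = 7), a ratio of 0.629. Both parts of the range were thus lower by nearly the same factor. All distances under 20 kb together held 15.2% of the cis contacts of cell 4, 1.87 points below the mean and inside the range of the other cells (14.9% to 19.2%). In the decay curve, which begins at 10 kb, cell 4 was also the lowest of the 8 cells in the bins under 20 kb.

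From 1 to 5 Mb cell 4 was like the others. It held 4.59% from 1 to 2 Mb against 4.81% ± 0.588 (SD, n = 7), and 6.31% from 2 to 5 Mb against 6.08% ± 0.442 (SD, n = 7). Cell 4 crossed above the others from 5 to 10 Mb, with 7.39% (6.97 to 7.82) against at most 6.73% (cell 6).

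The gain was largest between 20 and 100 Mb. From 20 to 50 Mb cell 4 held 21.5% (20.8 to 22.1), where the 7 cells held from 12.1% (cell 10) over a median of 16.6% to 18.6% (cell 6). From 50 to 100 Mb it held 13.8% (13.3 to 14.4), against 4.77% (cell 10), a median of 8.89% and 10.7% (cell 2), a ratio of 1.66 to their mean. The stretch from 10 to 20 Mb added little, 9.88% against 8.85% ± 0.846 (SD, n = 7), and lay inside the range, since cell 6 held 10.03%. Over 100 Mb cell 4 held 226 contacts, 1.54% (1.36 to 1.76), and cell 2 held more, 1.95%. In all, 46.7% (45.9 to 47.5) of the cis contacts of cell 4 spanned more than 10 Mb, and the highest of the 7 cells was cell 3 with 38.03%. The ensemble had 44.6% over 10 Mb and 12.1% over 50 Mb, where cells 2, 3 and 4 had 12.7%, 11.1% and 15.4%. Under 20 kb the ensemble held 7.52% of its cis contacts, against 15.2% in cell 4 and 14.9% to 19.2% in the 7 cells. Its shares at longer distances thus rest on an unlike base and do not compare directly with those of single cells.

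No single chromosome carried the long contacts of cell 4. The share from 20 kb to 1 Mb was below that of all 7 cells on 19 of 19 chromosomes (100%), and the slope was shallower than in all 7 on 19 of 19 (100%). The share over 10 Mb was above all 7 cells on 17 of 19 chromosomes (89.5%). These are the contrasts by which the cell was chosen, so the counts show only how widely they were spread. The exceptions were chromosome 7, where cell 2 was higher (46.1% against 44.7%), and chromosome 18, where cell 6 was higher (43.7% against 41.1%). On both, cell 4 was still above the mean of the 7 cells, by 8.96 and 7.23 points.

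**Figure D2:**
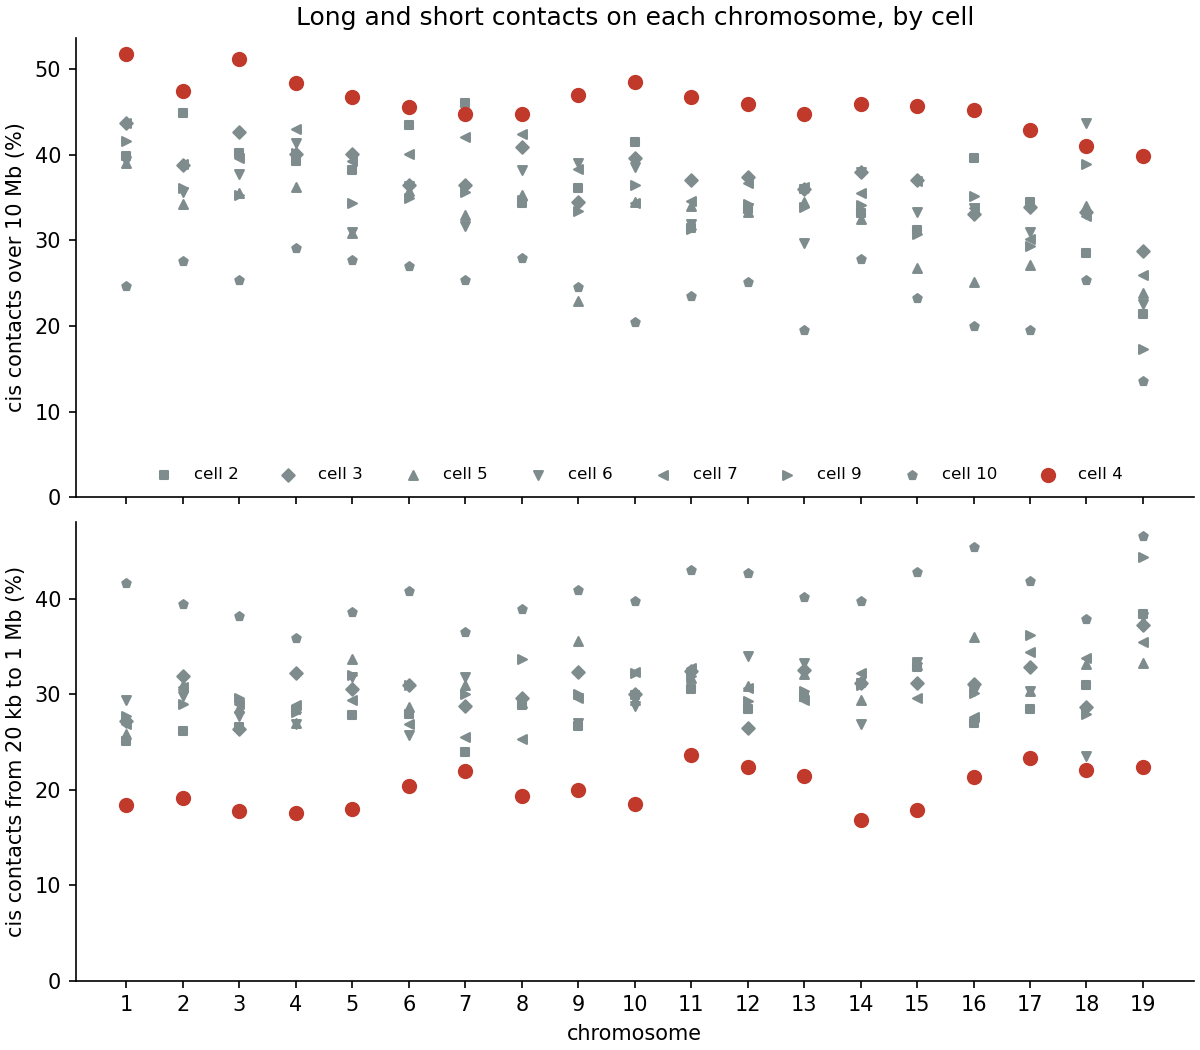
Share of cis contacts over 10 Mb (upper panel, %) and from 20 kb to 1 Mb (lower panel, %) on each of chromosomes 1 to 19; red circles are cell 4 and grey markers the 7 compared cells. Cell 4 is the highest in the upper panel on 17 of 19 chromosomes and the lowest in the lower panel on 19 of 19.

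The difference over 10 Mb was largest on chromosome 19, the shortest autosome. There 39.9% (34.7 to 45.3) of 321 cis contacts of cell 4 spanned over 10 Mb, against 21.9% ± 5.14 (SD, n = 7) and a highest value of 28.8% (cell 3). Chromosome 11 followed with 46.8% against 32.0% ± 4.28 (SD, n = 7), and chromosome 3 with 51.2% against 36.7% ± 5.63 (SD, n = 7). Chromosomes 15 (45.7% against 31.3%) and 9 (46.99% against 32.7%) came next. Long and short autosomes were both among these 5. The smallest differences were on chromosomes 18 (7.23 points), 8 (8.53) and 7 (8.96). Chromosome 1, with 1176 of the 14635 cis contacts of cell 4, gave 8.56% of the additional contacts over 10 Mb. Weighted by contact number in this way, no chromosome gave more. In cell 10, the steepest of the 7 cells, the opposite was as widely spread, with the lowest share over 10 Mb on 18 of 19 chromosomes.

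Slopes of single chromosomes in cell 4 ran from -0.957 on chromosome 11 to -0.687 on chromosome 4. On chromosome 4 the 7 cells had a mean of -1.03 and a shallowest value of -0.917. On chromosome 15 they had a mean of -1.05 and a shallowest value of -0.993, against -0.706 in cell 4. On chromosome 17 cell 4 barely left the range, with -0.868 against a shallowest value of -0.870.

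Contacts over 50 Mb were less evenly spread. Their share was above all 7 cells on 11 of 19 chromosomes (57.9%). Chromosome 2 had 20.4% of its cis contacts over 50 Mb in cell 4, against 11.4% on average and 17.1% at most in the 7 cells. Chromosome 14 had 18.5%, against 9.47% and 12.4%, and chromosome 1 had 22.2%, against 13.4% and 18.9%. Chromosomes 1, 2 and 4 gave 11.7%, 12.2% and 9.03% of the additional contacts over 50 Mb. These are long chromosomes (194, 179 and 153 Mb), with 1176, 1208 and 1011 of the 14635 cis contacts of cell 4. Chromosomes 17 (6.51% against 5.77%) and 7 (12.05% against 10.4%) hardly took part, and on chromosome 19, which has little room for such distances, 0 of 321 cis contacts were over 50 Mb, which allows a share of up to 0.935%.

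The contacts over 50 Mb were spread over many places. Cell 4 had 2252 of them in 642 pairs of 10 Mb blocks, and the 5 fullest pairs held 2.84%. In the 7 cells the 5 fullest held from 3.08% (cell 7) to 5.22% (cell 10). These shares were not matched for number, and the 7 cells had 460 (cell 10) to 2514 (cell 2) such contacts. Cells 2 and 3, nearest to cell 4 with 2514 and 1980, had 3.10% and 4.04%. The fullest pair joined chr4:20000001-30000000 with chr4:80000001-90000000 in 15 contacts, and cell 2 had 16 there. The next joined chr9:1-10000000 with chr9:90000001-100000000 in 13 contacts, where the 7 cells had 0 to 3 each. On chromosome 2 the blocks chr2:60000001-70000000 and chr2:140000001-150000000 shared 12 contacts in cell 4, 4 in cell 7 and 0 in each of the others. Pairs on chromosome 10 (chr10:50000001-60000000 with chr10:110000001-120000000) and chromosome 13 (chr13:10000001-20000000 with chr13:100000001-110000000) also held 12, and cell 6 had 13 on the first and cell 2 had 10 on the second. Of the 5 pairs, those on chromosomes 9 and 2 had fewer contacts in each of the 7 cells by a wide margin, and those on chromosomes 4 and 10 were as full in another cell. Coordinates are on mm9. Contacts that joined the first 20 Mb with the last 20 Mb of a chromosome were 6.44% of the contacts over 50 Mb, inside the range of the 7 cells (4.97% to 8.39%).

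Ends in both compartment classes took part in the shift. Bins of 1 Mb were put into 2 classes by the ensemble's own cis map, and class 1 is the one with more distinct fragment ends per bin. Among cis ends in class 1 bins, 41.7% of those of cell 4 had a partner over 10 Mb away, against 28.7% ± 4.19 (SD, n = 7). Among ends in class 2 bins the share was 49.8%, against 38.5% ± 4.99 (SD, n = 7). From 20 kb to 1 Mb the shares were 25.1% against 38.0% ± 3.61 (SD, n = 7) in class 1, and 16.5% against 27.04% ± 4.06 (SD, n = 7) in class 2. In cell 4 as in the others, class 1 thus had more short and fewer long contacts than class 2. Class 1 held 41.1% of all contact ends of cell 4 and 41.4% ± 1.69 (SD, n = 7) of those of the 7 cells, so the 2 classes were sampled alike.

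Sorting of contacts into classes was weaker in cell 4 than in each of the 7 cells, both in cis and in trans. It is given as the share of contacts that join bins of the same class, minus the share expected from the cell's own ends. For cis contacts over 10 Mb, 63.6% (62.4 to 64.7) of those of cell 4 joined the same class, against 50.8% expected, an excess of 12.8 points. The 7 cells had an excess of 17.2 (cell 6) to 20.5 points (cell 7), with a mean of 19.1 ± 1.18 (SD, n = 7). Cell 1, outside the comparison, was lower still, at 11.8.

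**Figure D3:**
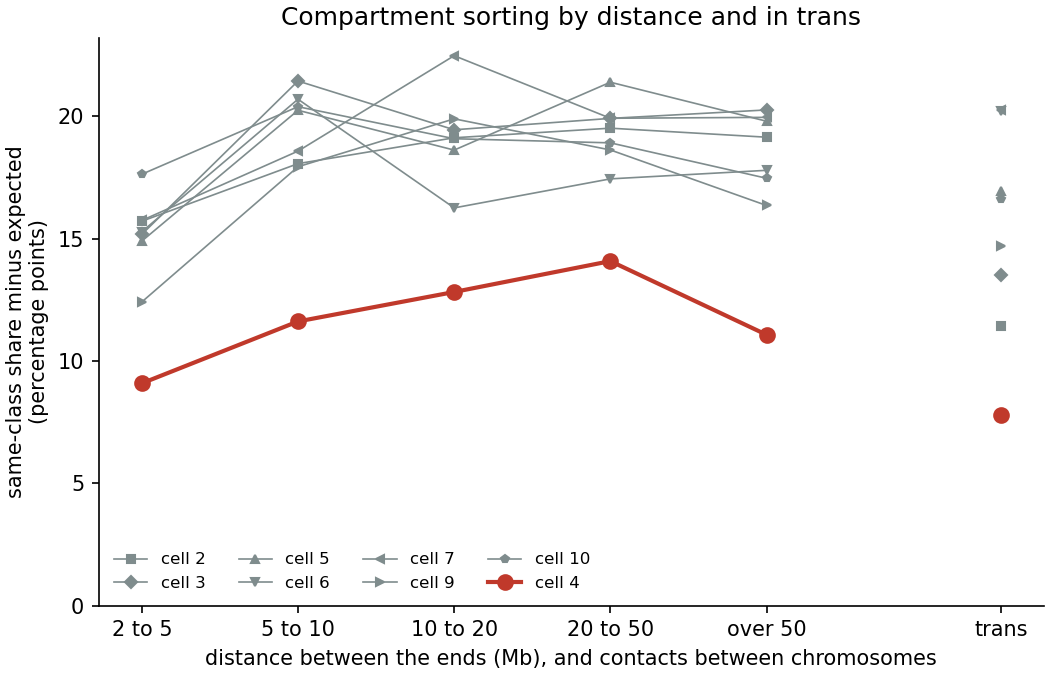
Share of contacts that join bins of the same class minus the expected share (percentage points), for cis contacts by distance between the ends and for trans contacts; red is cell 4 and grey the 7 compared cells. Cell 4 is the lowest at every distance and in trans, with 14.1 points from 20 to 50 Mb and 7.81 in trans.

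Every distance from 2 Mb upwards carried the weaker sorting. The excess of cell 4 was 9.09 points from 2 to 5 Mb, 11.6 from 5 to 10 Mb, 12.8 from 10 to 20 Mb, 14.1 from 20 to 50 Mb and 11.1 over 50 Mb. The lowest of the 7 cells had 12.4, 17.9, 16.3, 17.4 and 16.4 points at these distances. The means of the 7 cells were 15.3, 19.6, 19.3, 19.4 and 18.7. Cell 4 was nearest to the others from 20 to 50 Mb, and the difference from the mean was largest from 5 to 10 Mb.

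In trans, 57.8% (56.4 to 59.2) of 4736 contacts of cell 4 with both ends in classed bins joined the same class, against 50.004% expected, an excess of 7.81 points. The 7 cells had from 11.4 points (cell 2) over a median of 16.6 to 20.3 (cell 7). Cells 2 and 3, with trans shares close to that of cell 4, had 11.4 and 13.5 points, the lowest of the 7. A trans share at the upper end of the range therefore came with a low excess in those cells too, and its part in the value of cell 4 was not tested. The low value of cell 4 depended on how the classes were made. Where classes were called without balancing the ensemble map, the excess was -2.20 points in cell 4 and -2.45 on average in the 7 cells. Those classes gave little or no excess in any of the 7 cells, from -7.66 to 0.354 points. With classes called on 500 kb bins cell 4 stayed the lowest, at 8.17 points against at least 13.4.

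The low trans excess of cell 4 can also be given by kind of contact. Contacts of class 1 with class 1 were 1.16 times the expected number in cell 4, against 1.28 (cell 2) to 1.43 (cell 7). Contacts of class 2 with class 2 were 1.15 times the expected number, against 1.19 (cell 2) to 1.44 (cell 6). Contacts between the classes were 0.844 times the expected number, against 0.594 (cell 7) to 0.769 (cell 2). Cell 4 was outside the range of the 7 cells for all 3 ratios. The expected numbers came from each cell's own trans ends, which ties the 3 departures to each other. The ratios thus restate the trans excess and cannot show whether either class was weaker by itself.

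The excess in trans was below all 7 cells on 13 of 19 chromosomes (68.4%), and below their mean on 19 of 19. It was lowest on chromosome 10, with 2.50 points against 15.2 on average and at least 10.96 in the 7 cells. Chromosome 7 had 4.51 points, against at least 11.2, and chromosome 12 had 4.83, against at least 6.88. It was highest on chromosomes 15 (10.96), 1 (10.8) and 9 (10.1). On chromosomes 15 and 9 these values were still below the lowest of the 7 cells (13.8 and 11.1), and on chromosome 1 a cell of the 7 had 8.07. On chromosome 18 cell 4 was close to the mean of the others, 9.20 against 10.7 points. In cis over 10 Mb the excess was below all 7 cells on 10 of 19 chromosomes (52.6%), with the widest gaps on chromosomes 15 (8.11 points against 22.3 on average) and 17 (12.3 against 26.1). Chromosome 14 (17.4 against 17.9) was near the mean, and chromosome 19 (12.8 against 11.6, from 128 contacts) was the only one above it. On chromosome 19 the 7 cells ran from -1.43 to 18.3 points. The link of the classes to fragment ends per bin was weakest on chromosomes 14 and 19 (r = 0.225 and 0.233).

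In each kind of trans contact examined, cell 4 had the lowest excess of the 8 cells, by wide or narrow margins. On the 10 chromosome pairs with the largest excess of contacts in each cell, cell 4 had 11.3 points and the 7 cells 16.6 ± 3.41 (SD, n = 7), with a lowest value of 11.5 in cell 9. The same-class shares there were 61.3% (58.6 to 64.0) in cell 4 and 61.7% (55.9 to 67.3) in cell 9. These intervals overlap. On the remaining pairs cell 4 had 6.54 points, against 15.9 ± 3.76 (SD, n = 7) and at least 10.5. Trans contacts with another trans contact of the same cell within 1 Mb at both ends had an excess of 7.64 points in cell 4 and of at least 14.4 in the 7 cells. Those without such a neighbour had 7.08 points, against 7.60 (cell 2) to 20.7 (cell 7). The 2 kinds were thus alike in cell 4, as they were in cell 6 (20.5 and 20.1 points) and cell 9 (14.4 and 14.6). Contacts with a neighbour had more excess than those without in cells 2 (20.1 against 7.60), 3 (23.1 against 9.23), 5 (21.4 against 15.3) and 10 (23.6 against 15.1), and less in cell 7 (15.6 against 20.7). Cells 2 and 3 had trans shares close to that of cell 4. The gap of cell 4 to them was wide in contacts with a neighbour and small in those without.

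Class 1 was richer in trans contacts than class 2 in all 8 cells, and the gap was widest in cell 4. Of its ends in class 1, 29.6% belonged to a trans contact, and of its ends in class 2, 21.0%, a difference of 8.59 points. In the 7 cells the difference was 2.87 (cell 5) to 5.00 points (cell 3). In cell 2 27.8% of class 1 ends were in trans, close to cell 4, but so were 23.8% of class 2 ends.

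Contacts between chromosomes were spread over the autosome pairs more unevenly in cell 4 than in each of the 7 cells. Unevenness is measured by the dispersion, the chi-square over its degrees of freedom against the ensemble's shares of trans contacts, which is 1 where those shares hold. It was 36.7 in cell 4, against 4.62 (cell 9) over a median of 11.7 to 26.7 (cell 5). The dispersion grows with the number of contacts, and with all cells thinned at random to 10834 contacts it was 20.8 in cell 4 and 8.20 ± 3.84 (SD, n = 7) in the others, with at most 15.6. That thinning matched all contacts, not trans contacts, which stayed more numerous in cell 4. The excess of the dispersion over 1 per trans contact, multiplied by the degrees of freedom, does not grow with the number of contacts. It was 1.28 in cell 4, with cell 5 (1.20) and cell 6 (1.05) close behind and a mean of 0.650 ± 0.341 (SD, n = 7). In addition, 45.6% of the trans contacts of cell 4 lay above the expected number of their pair, against 25.1% (cell 9) to 41.6% (cell 6).

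**Figure D4:**
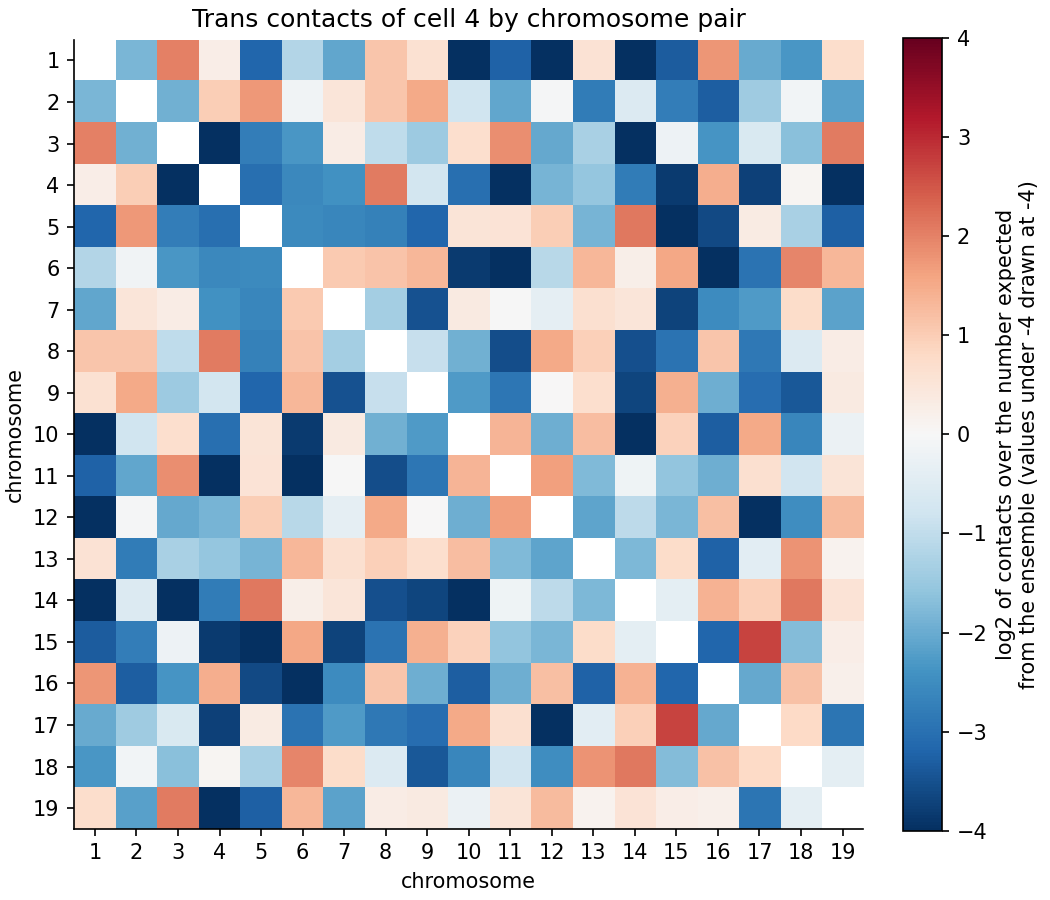
Trans contacts of cell 4 for each pair of chromosomes 1 to 19, as log2 of the number of contacts over the number expected from the ensemble; values under -4 are drawn at -4 and the diagonal is blank. Chromosomes 15 and 17 stand out in red at 6.53 times the expected number, and 88 pairs in blue shades held at most 0.5 times the expected number.

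The strongest pairs of cell 4 each held 3 to 7 times the expected contacts and chromosome 3 was the only one in more than 1 of the 5 named here. By excess over expectation chromosomes 1 and 3 led, with 156 contacts against 38.9 expected, and the 7 cells had 9 to 71 there. Chromosomes 2 and 5 had 162 against 48.99, a fold of 3.31 where cell 6 reached 2.07. Chromosomes 15 and 17 had 133 against 20.4, the highest fold at 6.53, where cell 6 reached 2.16. Chromosomes 4 and 8 had 139 against 33.2, a fold of 4.19, where cell 5 reached 3.39. Chromosomes 3 and 11 had 127 against 35.3, a fold of 3.60, where cell 6 reached 1.79. On each of these 5 pairs cell 4 was above all 7 cells.

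This was no more than the other cells did on pairs of their own. Cell 4 was above all 7 on 23 pairs (13.5% of all autosome pairs), and each of the 7 was above the rest of the 8 cells on 15 to 28 pairs. The 10 leading pairs held 26.0% (24.8 to 27.3) of the trans contacts of cell 4, and cell 5 had 26.3%. The leading pair of cell 4 held 3.28% of its trans contacts, and in the 7 cells the leading pair held 1.65% to 3.90%.

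Cell 4 stood out for the pairs with few contacts. In cell 4, 88 pairs (51.5%) held at most 0.5 times the expected number. Cells 5 and 6 came nearest, with 79 (46.2%) and 69 pairs (40.4%), then cell 7 with 53 (31%), cell 10 with 46 (26.9%) and cell 2 with 44 (25.7%). Cells 3 and 9 had the fewest such pairs, 36 (21.1%) and 34 (19.9%). On 48 pairs (28.1%) cell 4 was below all 7 cells, and each of the 7 was below the rest on 2 (cell 9) to 41 (cell 6). In cell 6, with 1733 trans contacts against 4760 in cell 4, low counts of single pairs are less certain. At the other end, 32 pairs (18.7%) of cell 4 held at least 2 times the expected number, and cells 6, 5 and 7 followed with 28 (16.4%), 26 (15.2%) and 23 (13.5%). Cell 10 had 19 such pairs (11.1%), cells 2 and 9 had 17 each (9.94%) and cell 3 had 15 (8.77%). Pairs near expectation were thus rarer in cell 4.

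**Figure D5:**
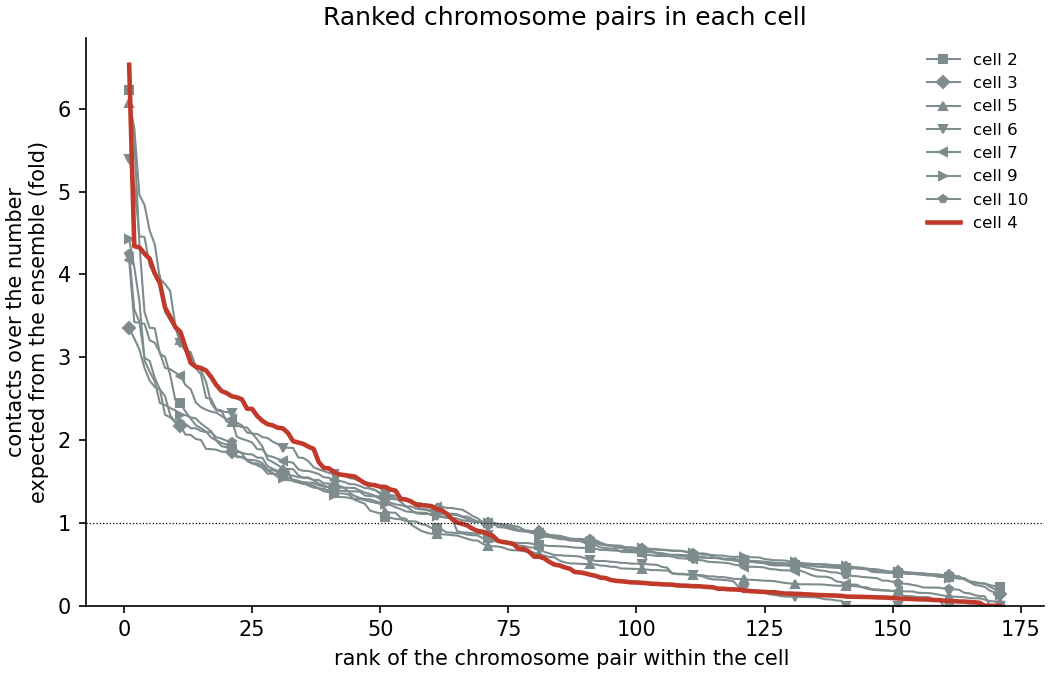
Number of trans contacts over the number expected from the ensemble (fold) for all autosome pairs, ranked within each cell; red is cell 4 and grey the 7 compared cells, and the dotted line marks the expected number. The red curve is the highest at ranks near 30, where 32 pairs hold at least 2 times the expected number, and falls below most of the grey curves after rank 90.

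No contact of cell 4 joined chromosome 1 with 14, where 31.2 were expected, nor chromosome 10 with 14 (22.2 expected), 6 with 16 (22.1 expected) or 4 with 19 (18.9 expected). A count of 0 among 4760 trans contacts allows a share of up to 0.0630%. Single contacts joined chromosome 5 with 15 (28.3 expected), 3 with 14 (23.3 expected) and 12 with 17 (19.4 expected), and 2 contacts joined 4 with 11, where 44.5 were expected. These pairs were picked for their low counts. Empty pairs were not particular to cell 4: it had 4, cell 6 had 31, cell 7 had 12 and cell 10 had 3. Cells 2, 3, 5 and 9 had 0.

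No chromosome of cell 4 carried the unevenness alone: the pairs of chromosome 15 held the largest part of the chi-square, 16.2%, and those of chromosome 7 the smallest, 4.03%, with each pair counted for both its chromosomes. Chromosome 17 had 32.4% of its trans contacts with chromosome 15, chromosome 4 had 30.2% with chromosome 8, and chromosome 5 had 30.1% with chromosome 2. For chromosomes 13 and 6 the partner with the largest excess over expectation, chromosome 18 for both, took 12.2% and 13.2%. Chromosomes 6, 8 and 16 had 7, 6 and 6 partners at 2 times the expected number or more, and chromosome 7 had 1. The 19 chromosomes each had 5 to 12 partners at 0.5 times or less. The total of trans contacts per chromosome was less uneven, from 0.767 of the expected number on chromosome 4 to 1.27 on chromosome 8. The value of chromosome 8 was above that of the 7 cells (0.792 to 1.11). Its trans share, 30.9%, was likewise above theirs (17.3% on average and 27.1% at most).

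The contacts of the leading pairs were spread along much of the length of most of these chromosomes. These pairs were picked for their many contacts, which by itself makes blocks with at least 2 contacts likely. No other pair or cell was compared, and the 2 copies of each chromosome were not told apart. Between chromosomes 15 and 17 every 10 Mb block of both chromosomes, 11 and 10 of them, had at least 2 contacts with the other chromosome, and 60 of the 110 block pairs were used. Between chromosomes 2 and 5 the longest unbroken runs of such blocks were chr2:1-130000000 and chr5:20000001-152533666, which held 136 of the 162 contacts. Between chromosomes 3 and 11 they were chr3:70000001-159593690 and the whole of chromosome 11, with 102 of 127 contacts. Between chromosomes 4 and 8 they were chr4:80000001-155608352 and chr8:20000001-131710775, with 90 of 139. Between chromosomes 1 and 3 they were chr1:1-110000000 and chr3:80000001-159593690, but these held only 26 of 156 contacts. The contacts of that pair instead followed the order of position along both chromosomes (Pearson r = 0.594 over 156 contacts, which share the same chromosomes and are given as a description). On chromosomes 15 and 17 r was -0.127 over 133 contacts, so position on one was hardly related to position on the other. Few contacts sat in any one place: the fullest pair of blocks held 6 to 10 contacts in each of the 5 chromosome pairs. Counting contacts within 1 Mb at both ends once left 133 of 156 contacts between chromosomes 1 and 3, and 109 of 133 between 15 and 17.

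Several measures that had no part in the choice of cell 4 lay within the range of the 7 cells. Contact ends per Mb, divided by the ensemble's, varied over the 19 chromosomes with a coefficient of variation of 10.6%, against 8.75% (cell 3) to 16.1% (cell 6). On chromosome 16 this density was 0.961 in cell 4, below all 7 cells (1.02 to 1.17). It was above all 7 on chromosomes 3, 9 and 15, for example 0.987 on chromosome 9 against 0.866 to 0.974. Of trans contacts, 22.1% (21.0 to 23.3) had a neighbour within 1 Mb at both ends, against 5.81% (cell 9) to 25.8% (cell 5). Of cis contacts over 10 Mb, 40.3% (39.1 to 41.4) had one, against 18.5% (cell 9) to 53.99% (cell 3). With every cell thinned to 10834 contacts in all, which leaves trans and long cis contacts unequal, the 2 shares were 13.8% and 26.04% in cell 4, and 12.6% and 25.8% on average in the 7 cells.

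Trans contacts of cell 4 joined positions at a like distance from the chromosome start about as often as in the other cells. Mouse autosomes have their centromere at the start, so this asks whether chromosomes lay side by side in the same direction. In cell 4, 28.4% (27.1 to 29.7) of trans contacts had ends within 20 Mb of each other in that distance, 2.82 points above the share over all pairs of trans ends of the same chromosomes. The 7 cells were 0.269 (cell 2) to 8.05 points (cell 5) above it. Contacts between the first 20 Mb of 2 chromosomes were 1.36 times the number expected from the ends there (116 against 85.2), inside the range of 1.07 (cell 3) to 1.70 (cell 5). Contacts of a start with an end of another chromosome were 0.947 times the expected number, above the 7 cells (0.477 in cell 6 to 0.865 in cell 3).

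Cell 4 had the lowest share of fragment ends that met more than 1 partner. These ends numbered 445 of 38342 autosomal ends, 1.16% (1.06 to 1.27), against 1.36% (cell 10) to 1.87% (cell 3), and the highest number of partners was 3 in each of the 8 cells. Among contacts under 1 Mb alone, 0.412% (0.305 to 0.556) of ends had more than 1 partner in cell 4, against 0.453% (cell 3) to 0.684% (cell 10). Among trans contacts and contacts over 1 Mb the share was 0.844%, inside the range of 0.762% (cell 10) to 1.41% (cell 2).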

How the data were processed

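The deposited files hold 1 line per contact, giving the chromosome and the position in bp of either end, per the file headers. Coordinates are those of mm9, the build that the submitters' processing notes name. No aligner or read filter is stated in the labels or headers. Only contacts between chromosomes 1 to 19 were used. The pooled map and the Dpn II cell were not used. Values were computed with pandas 2.3.3, numpy 2.4.6 and scipy 1.17.1 under Python 3.11.15.

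Slopes came from a straight line fitted by least squares to log10 density in 10 bins per decade, where density is contacts per possible pair of positions. Each 1 Mb bin took its class from the sign of the leading eigenvector of the correlated cis map of the ensemble, after 50 iterations of balancing and without bins under 0.2 of the median row sum. Class 1 was the sign with more distinct fragment ends. The correlation of the eigenvector with fragment ends per bin was weak on some chromosomes, from 0.225 (chromosome 14) to 0.705 (chromosome 11). The expected same-class share came from the class shares of the cell's trans ends, and in cis from its bin totals at the same chromosome and separation. Leading pairs were ranked by contacts minus the number expected from the ensemble's trans shares.

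Regions were named by rule: 5 chromosomes with the largest and 3 with the smallest difference over 10 Mb, 5 leading pairs, the 5 fullest block pairs over 50 Mb, and 3 chromosomes at either end of the trans excess. Other chromosomes and the pairs with few contacts were named after their values were seen. Cell 4, the measures and these rules were chosen with earlier results of these data known. The functions were tested on simulated data. No annotation of mm9 was used here, so no gene was assigned to a region.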

Additional observations from a re-analysis of the deposited data

Results flagged for a closer look

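Of 32 measures compared over the 8 cells, 5 had 1 cell that stood apart by a wide gap. The gap was set so that about 1 in 20 measures would show it by chance. That rate does not apply here, since the measures overlap and include values by which cell 4 was chosen. The 5 are therefore listed, not tested against chance. In 3 of the 5 that cell was cell 4. Its excess of same-class cis contacts over 10 Mb was 12.82 points, its share of cis contacts from 20 to 100 kb was 7.571%, and its trans share of class 1 ends minus that of class 2 ends was 8.592 points. The first of these was among the values by which the cell was chosen, and the second belongs to the same fall of contacts with distance. The other two stand-apart values were in compared cells: ends per Mb varied over chromosomes with a coefficient of 16.15% in cell 6, and cell 10 had 6.087% of its cis contacts from 1 to 2 Mb.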

How the results depend on the processing

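Of 169 recomputed differences between cell 4 and the mean of the compared cells, 158 moved by less than 1 SD of the 7 cells and 11 by more, and 9 changed sign. With classes called without balancing, the trans same-class difference was 0.248 points in place of -8.43, and the cis difference -2.17 in place of -6.32. The mean of the 7 cells then had no trans excess either, and the cause was not tested. Without the bins of weakest eigenvector the differences were -12.4 and -11.7 points. The slope difference of 0.215 was 0.132 from 500 kb to 50 Mb. Thinning lowered the dispersion difference from 23.2 to 12.6. Against cells 2 and 3 alone, an alternative chosen after the data were seen, as was leaving out cells, the trans share differed by -0.477 points in place of 6.40, the trans same-class excess by -4.66, ends with more than 1 partner by -0.707, alignment by 1.20 in place of -1.43, and long cis contacts with a neighbour by -13.3 in place of 3.92 points. The other 5 sign changes were of differences smaller than 1 SD, among them the spread of ends without cell 6 (0.381) and the class 1 share without cell 10 (0.224). Leaving out any of the 7 cells moved no difference by 1 SD. With cell 1 added, cell 4 was no longer the lowest in cis sorting. No paired analysis was possible because each cell is a sample of its own and cell numbers pair nothing. Depth limits values of single chromosomes and pairs most.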
